A study of Homo sapiens with 6 samples.

Results

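The 10 genes described here build and load the replicative helicase: MCM2, MCM3, MCM4, MCM5, MCM6 and MCM7, the accessory factor MCM10, the loaders CDC6 and CDT1, and GINS2, a subunit of the complex that activates the loaded helicase. They were taken by symbol from the array's annotation, are 10 of its 36337 gene names, and are measured by 12 of its 50599 probes, since MCM5 and MCM7 have 2 probes each. RNA came from 6 subcutaneous xenografts of BxPC-3, an established human pancreatic adenocarcinoma cell line, grown in female BALB/c nude mice that were 8 to 10 weeks old at the start. The 3 control tumors were from mice given vehicle, and the 3 DFX tumors from mice given 200 mg/kg of the oral iron chelator deferasirox (DFX) by gavage, 3 times a week for 21 days, once tumors had reached 150 mm3. Each tumor was hybridized to its own one-color array of human 60-mer probes. All 6 tumors come from 1 cell line, in hosts that lack T cells but keep other immune cells and supply the stroma and vessels.

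Replication origins are licensed in G1, when the origin recognition complex, CDC6 and CDT1 load the ring of MCM2 to MCM7 onto DNA as an inactive pair of rings. At the start of S phase, kinases and the firing factors recruit CDC45 and the GINS complex, and MCM10 takes part in activating the rings, which then unwind DNA ahead of the polymerases. Licensing outside G1 is prevented by geminin, the product of GMNN, which binds CDT1, and by the degradation of CDT1. The genes are transcribed mainly as cells enter and pass through the cycle, in large part through E2F factors, so their RNA is widely used as a measure of proliferation.

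Sequences of 2 kinds are shown here. The probes of MCM5 and of the dimmer MCM7 signal are shown because these genes were read at 2 places and the readings can be compared. They are printed 5′ to 3′ in lower case, as no part of them is marked, with positions on hg19 from the array's annotation.
MCM5 brighter probe, chr22:35819307-35820178, + strand: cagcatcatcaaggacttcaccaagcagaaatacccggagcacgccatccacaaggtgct
MCM5 dimmer probe, chr22:35813789-35813848, + strand: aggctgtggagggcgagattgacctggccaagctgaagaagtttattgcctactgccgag
MCM7 dimmer probe, chr7:99697277-99697336, - strand: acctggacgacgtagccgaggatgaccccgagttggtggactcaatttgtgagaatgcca
The brighter MCM5 probe has 60 bases but spans 872 bases of the genome, so it crosses an exon junction.

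The promoters are shown as background on the genes. The 250 bases before the first start listed for a gene were read from RefSeq (GRCh38.p14), where 8 of the 10 members were found, the others being MCM4 and MCM5. They were searched on both strands for the E2F-type octamers TTTCCCGC, TTTCGCGC, TTTGCCGC and TTTGGCGC, which can overlap each other across strands. At least 1 octamer was present in 5 of the 8 members (CDT1, GINS2, MCM3, MCM6 and MCM7) and in 2.79% of all 27305 promoters. The windows around them follow, with the octamers in capitals.
MCM6, chr2:135876512-135876605, - strand: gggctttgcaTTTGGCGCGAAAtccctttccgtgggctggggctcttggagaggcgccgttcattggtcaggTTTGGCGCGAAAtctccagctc
MCM3, chr6:52284899-52284926, - strand: ggatggtacgTTTCCCGCcaccgcgggg
MCM7 upstream window, chr7:100101567-100101594, - strand: agctcggaccGCGGGAAAcccggcgcct
MCM7 window next to the start, chr7:100101398-100101416, - strand: gggggcgacgTTTCGCGCc
CDT1, chr16:88803744-88803771, + strand: cagggcgcccGCGGGAAAtttggcggga
GINS2, chr16:85688968-85688995, - strand: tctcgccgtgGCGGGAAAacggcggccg
In MCM6 the capitals are 2 runs in which TTTGGCGC on the gene's strand and TTTCGCGC on the other strand overlap, which makes 4 octamers. The sequence CCAAT was present in 6 of the 8 members (CDC6, GINS2, MCM10, MCM3, MCM6 and MCM7) against 9021 of the 27305, and TTTGAA in 0 of 8 against 13.6%. These matches describe letters in a window and do not show that a factor binds there. The part of these sequences in the values below was not tested.

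All values are normalized log2 intensities of single probes, which compare tumors with each other but not probes with probes. All 6 arrays lay on 1 slide, with the control tumors in row 1 and the DFX tumors in row 2, so that slide row and treatment cannot be told apart. Probes well above background made up 50.3% of all probes on the array of DFX replicate 2 and 53.9% to 56.5% on the others. The tumors were epithelial by their markers, since 7 of 7 epithelial genes were well above background on all arrays. Their summed linear intensity was 627300 to 629500 with vehicle and 641300 to 655200 with DFX. Of the 7, 6 had a log2 fold change above 0 and 1, KRT7, below 0 (-0.17). By the brightest probe, 3 of the 7 (KRT8, KRT18 and EPCAM) were higher with DFX at an unadjusted limma p under 0.05. Over all tested genes this share was 3.63%. With adjusted p-values, 0 of the 7 were under 0.05. The summed level of 8 host fibroblast genes was 13760 to 22720 in control and 12700 to 15720 in DFX tumors, with PDGFRB well above background on no array. Its genes differed in direction, as DCN had a log2 fold change of -1.30 (limma, adjusted p = 0.514) and LUM one of 0.87 (limma, adjusted p = 0.584). That of 7 host leukocyte genes was 1935 to 2277 and 2039 to 2382, with CD163 and CSF1R well above background on no array. The 5 endothelial genes summed to 495.9 to 950.3 and 583.3 to 620.1, with KDR well above background on no array. Of the 4 tested endothelial genes, 1 had a log2 fold change above 0 and 3 below 0. PECAM1 was at 1.27 (limma, adjusted p = 0.5035) and VWF at -0.58 (limma, adjusted p = 0.667). The 5 red blood cell genes summed to 6693 to 7960 in control and 3041 to 3225 in DFX tumors. These sums add the intensities of different probes, so the brightest weigh most. The probes were designed for human RNA and the hosts were mice, so these sums are not a measure of host cell content. Whether the signals came from host cells was not tested, nor was the part of such cells in the results below.

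The licensing genes did not separate the DFX tumors from the control tumors. All 12 probes passed the detection filter, and 0 of the 12 had an unadjusted p under 0.05 in limma, against 8.41% of all 31801 tested probes (3.47% higher and 4.95% lower with DFX). With p-values adjusted by the Benjamini-Hochberg method for every tested probe, limma called 0 of the 12 and 0% of all probes. The groups overlapped in all 12 probes, whereas they did not overlap in 15.5% of all tested probes, so the Kruskal-Wallis H test also gave 0 member probes under 0.05. With array quality weights limma gave 1 of the 12 under 0.05, that of MCM3, against 11.4% of all tested probes under the same setting. Judged by the brighter probe, 6 of the 10 genes had a log2 fold change above 0 and 4 below 0, with a median of 0.020 beside a median of -0.012 over all 23805 tested genes. In bulk RNA, a difference in the share of replicating cells and a difference in these RNAs per cell cannot be told apart. The methods of the study give the 3 samples of a group as separate tumors, and the p-values rest on the spread between them.

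**Figure D1:**
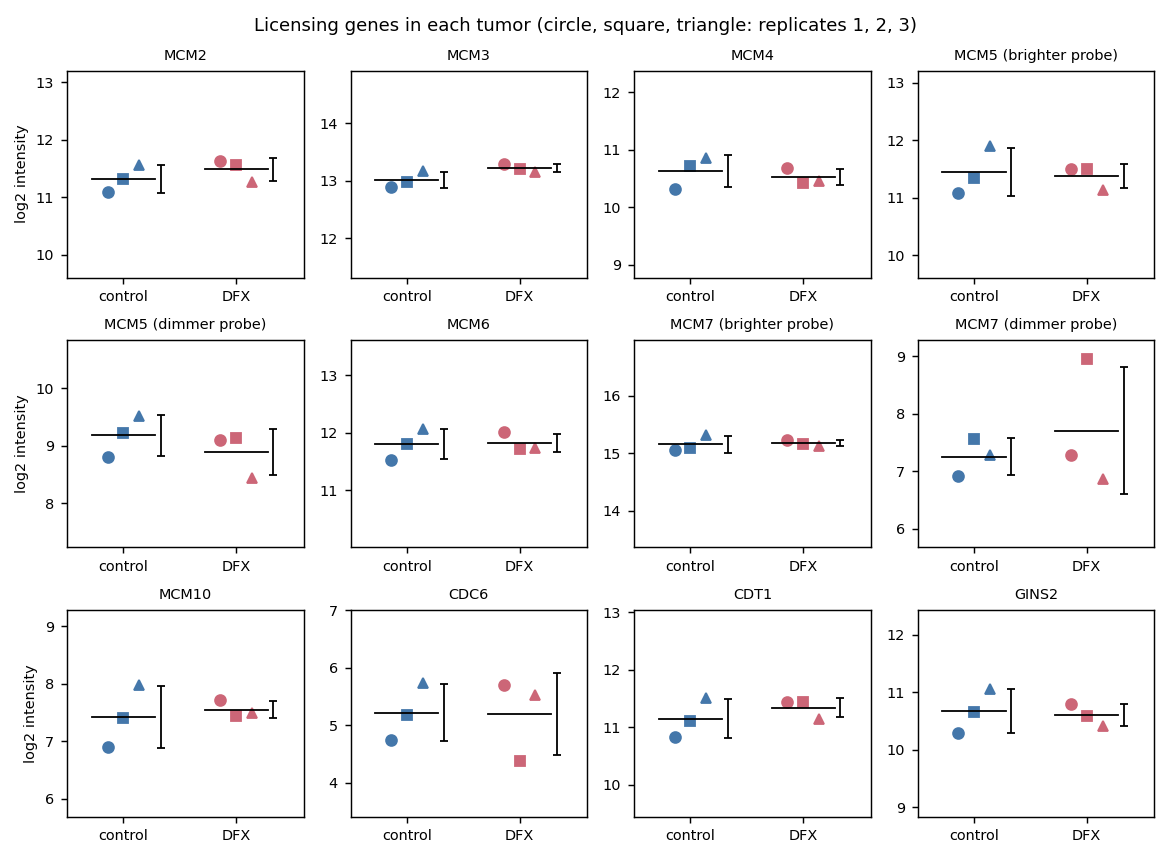
Normalized log2 intensity of the 12 probes of the 10 genes in each tumor, with control tumors in blue and DFX tumors in red, circles, squares and triangles for replicates 1, 2 and 3, a line at the group mean and a bar of 1 SD (n = 3). Each panel spans the same range of the log2 scale; the groups overlap in every panel, and control replicate 3 is the highest control tumor in all panels but that of the dimmer MCM7 probe.

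MCM2, which holds a histone-binding region and lies in the helicase ring between MCM5 and MCM6, was read by a probe at chr3:127340805-127340864 (hg19). Its log2 intensity in replicates 1, 2 and 3 was 11.09, 11.31 and 11.56 for control and 11.63, 11.57 and 11.27 for DFX, and this order of replicates is kept below. The highest value was in a DFX tumor and the lowest in a control tumor, but DFX replicate 3 lay inside the control range. The fold was 1.12 in DFX over control with a 95% interval of 0.842 to 1.50 (limma, adjusted p = 0.796).

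MCM3, a ring subunit next to MCM5 and MCM7, had the smallest p of the members. Its probe, at chr6:52128893-52128952, read 12.90, 12.98 and 13.17 with vehicle and 13.29, 13.20 and 13.16 with DFX. Only control replicate 3 reached into the DFX range. The log2 fold change was 0.20 (standard error 0.12), a fold of 1.15 with a 95% interval of 0.943 to 1.40 (limma, unadjusted p = 0.137, adjusted p = 0.673). With array quality weights it was 0.26 with an unadjusted limma p of 0.0461.

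MCM4, MCM6 and MCM7 form the catalytic core that has helicase activity in vitro. MCM4 read 10.31, 10.71 and 10.86 with vehicle and 10.67, 10.42 and 10.46 with DFX. All 3 DFX values lay within the control range, and the fold was 0.925 with a 95% interval of 0.689 to 1.24 (limma, adjusted p = 0.870). MCM6, at chr2:136598217-136598276, read 11.54, 11.81 and 12.06 with vehicle and 12.01, 11.72 and 11.74 with DFX. Its DFX values were again inside the control range, with a fold of 1.02 and a 95% interval of 0.760 to 1.36 (limma, adjusted p = 0.980).

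MCM7 was read by a bright probe at chr7:99690520-99690579 and by the dimmer one printed above. The bright probe gave 15.05, 15.09 and 15.32 with vehicle and 15.23, 15.16 and 15.13 with DFX. Its fold was 1.01 with a 95% interval of 0.832 to 1.23 (limma, adjusted p = 0.976), the narrowest interval among the 12 probes. The dimmer probe gave 6.91, 7.57 and 7.29 with vehicle and 7.29, 8.96 and 6.87 with DFX. DFX replicate 2 stood apart on this probe, while on the bright probe it lay between the other DFX tumors. The dimmer probe's log2 fold change was 0.45 (standard error 0.55, limma, adjusted p = 0.834), and -0.18 without DFX replicate 2, so that tumor decided its direction.

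MCM5, the ring subunit next to MCM2 at the point where the ring opens for loading, was read by both probes printed above. The brighter probe read 11.09, 11.35 and 11.90 with vehicle and 11.49, 11.49 and 11.13 with DFX. The dimmer probe read 8.80, 9.23 and 9.52 with vehicle and 9.11, 9.14 and 8.43 with DFX. On both probes control replicate 3 was the highest of the 6 tumors and DFX replicate 3 the lowest DFX tumor. The folds were 0.953 with a 95% interval of 0.639 to 1.42 for the brighter probe (limma, adjusted p = 0.948) and 0.817 with one of 0.520 to 1.28 for the dimmer probe (limma, adjusted p = 0.773).

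The loaders did not separate the groups either. CDT1, which brings the MCM ring to the origin and is the target of geminin, was read at chr16:88875606-88875665. It was at 10.83, 11.11 and 11.51 with vehicle and at 11.44, 11.43 and 11.15 with DFX, all within the control range, with a fold of 1.14 and a 95% interval of 0.812 to 1.60 (limma, adjusted p = 0.807). CDC6, the ATPase that binds the origin recognition complex before CDT1 arrives, was read at chr17:38459354-38459413. It gave 4.74, 5.18 and 5.74 with vehicle and 5.70, 4.39 and 5.53 with DFX. It was well above background on all arrays but that of DFX replicate 2, which also had the fewest probes well above background. The log2 fold change of CDC6 was -0.01 with a 95% interval of -1.03 to 1.01 (limma, adjusted p = 0.994), which as a fold reaches from 0.488 to 2.01. Without DFX replicate 2 it was 0.40.

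Of the factors that act after loading, MCM10 was read at chr10:13251992-13252051 and GINS2 at chr16:85711654-85711713. MCM10 had the widest spread among control tumors of the 10 genes, at 6.90, 7.41 and 7.98, whereas the DFX tumors were at 7.71, 7.45 and 7.49. The DFX values fell within the control range, and the fold was 1.09 with a 95% interval of 0.682 to 1.74 (limma, adjusted p = 0.915). GINS2 read 10.29, 10.65 and 11.05 with vehicle and 10.79, 10.59 and 10.42 with DFX, again within the control range. Its fold was 0.956 with a 95% interval of 0.659 to 1.39 (limma, adjusted p = 0.947).

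**Figure D2:**
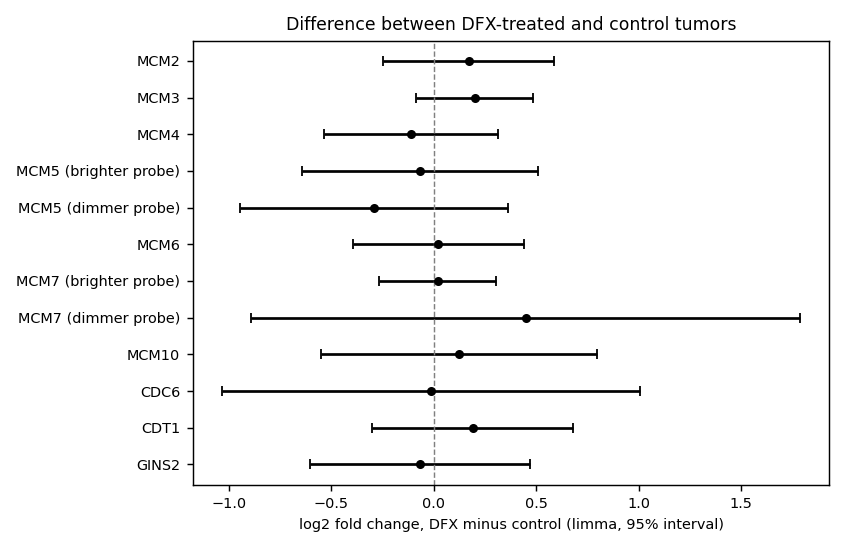
Log2 fold change of DFX over control tumors for each of the 12 probes (points) with its 95% interval from limma (bars, 3 tumors a group). Every interval includes 0; the brighter MCM7 probe has the narrowest and the dimmer MCM7 probe the widest.

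GINS2 was printed 10 times on each array, which gives the spread between spots within an array. The SD over its 10 spots was 0.033 to 0.071 on the log2 scale. The SD between the 3 control tumors was 0.38 and that between the 3 DFX tumors 0.19. The spots of control replicate 1 reached at most 10.38 and those of control replicate 3 at least 11.01, so these tumors did not overlap in any spot. The spread between tumors of 1 group was thus larger than the spread between spots for this gene. The spots of an array share the RNA extract, its labeling and the hybridization. Each tumor had its own array, so a difference between tumors and one between arrays cannot be told apart.

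**Figure D3:**
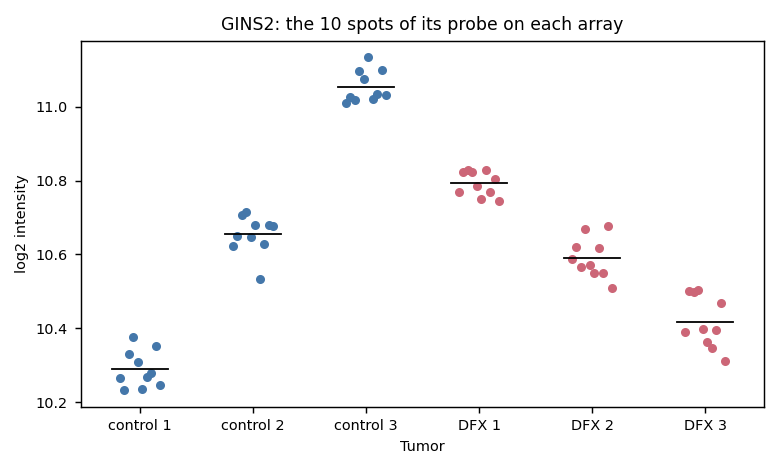
Log2 intensity of GINS2 at the 10 spots of its probe on each array, with a line at the mean of the spots, control tumors in blue and DFX tumors in red. The spots of a tumor lie close together, and those of control replicates 1 and 3 are 0.76 apart on the log2 scale between their means.

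What these genes shared was their order among tumors. In all 10 genes, by the brighter probe, control replicate 1 was the lowest control tumor and control replicate 3 the highest. This order was found in 21.5% of all tested genes. Control replicates 1, 2 and 3 lay in slide columns 2, 3 and 4. Among the control tumors this order and the slide column thus cannot be told apart. DFX replicates 1, 2 and 3 lay in columns 1, 2 and 4. Control replicate 1 was the lowest of all 6 tumors in 9 of the 10 genes (15.6% of all tested genes), the exception being CDC6. Control replicate 3 was the highest of all 6 in 8 of the 10 (25.2% of all tested genes), the exceptions being MCM2 and MCM3, which were highest in DFX replicate 1. Among the DFX tumors, replicate 1 was the highest in 9 of the 10 genes (29.6% of all tested genes), the exception being MCM5, at 11.49 in both DFX replicates 1 and 2. These shares are descriptions, since the genes of a tumor are not independent of each other.

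Control replicate 3 was above control replicate 1, the ends of this order, by a median of 0.61 on the log2 scale over the 10 genes. Over all tested genes the median was 0.016, which the normalization holds near 0. The folds of control replicate 3 over control replicate 1 ran from 1.21 for MCM7 and MCM3 through 1.44 for MCM6 and 1.75 for MCM5 to 1.99 for CDC6 and 2.10 for MCM10. Relative to each gene's mean over the 6 tumors, the median over the 10 genes was -0.32, -0.066 and 0.28 in control replicates 1, 2 and 3 and 0.18, -0.023 and -0.087 in DFX replicates 1, 2 and 3. The median SD of the 10 genes was 0.31 among control and 0.16 among DFX tumors, and the control SD was the larger in 9 of the 10, against 54.3% of all tested genes. The exception was CDC6. The genes differed in the size of this shared profile. Slopes of a gene's profile on the mean profile of the 10, which includes the gene itself, were 0.41 for MCM7 and 0.48 for MCM3. They were 1.02 for CDT1, 1.56 for MCM10 and 1.77 for CDC6. A slope does not give how closely a gene follows the profile. The root mean square difference left after subtracting the mean profile was smallest for MCM6 (0.039) and largest for CDC6 (0.38).

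**Figure D4:**
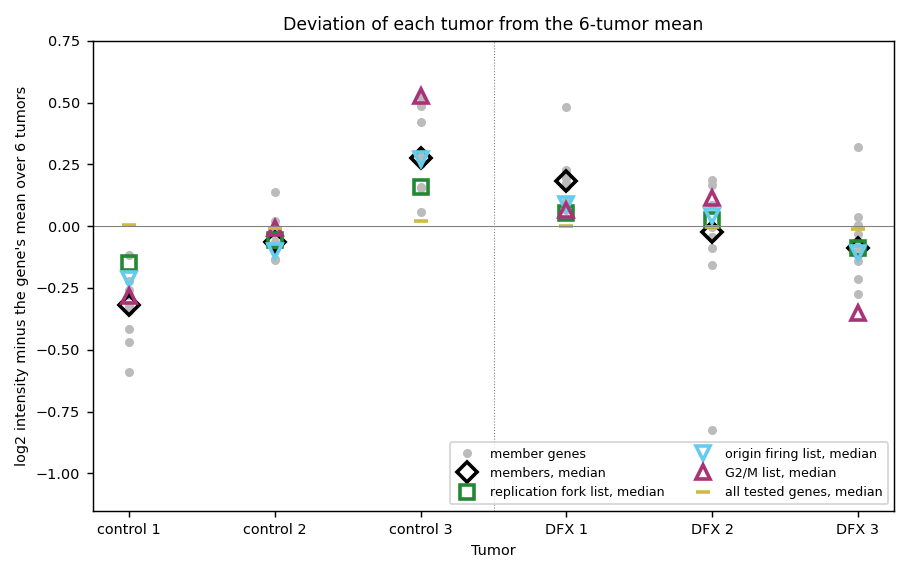
Log2 intensity in each tumor minus the gene's mean over the 6 tumors, for the 10 licensing genes (grey points) and as medians of the licensing genes, the replication fork, origin firing and G2/M lists, and all tested genes. The licensing genes are all below their mean in control replicate 1 and all above it in control replicate 3 and DFX replicate 1, while the median of all tested genes stays near 0.

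The direction of the folds depended on single tumors. Over the 10 genes, the median was -0.13 on the log2 scale without control replicate 1 and 0.20 without control replicate 3, and -0.041 without DFX replicate 1. Arrays in the same column of the slide gave opposite directions. These pairs held control replicates 1 and 3, the ends of the order above, and are not separate evidence. In column 2, 9 of the 10 genes were higher in DFX replicate 2 than in control replicate 1. The median difference was 0.305 on the log2 scale (-0.013 over all genes). In column 4, 0 of the 10 were higher in DFX replicate 3 than in control replicate 3, and the median difference was -0.34 (-0.036 over all genes). In control replicates 1, 2 and 3 the medians relative to each gene's mean were 0.16, 0.47 and -0.53 for the host fibroblast list and 0.032, -0.059 and -0.21 for the epithelial list, and their part in the order of the licensing genes was not tested.

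The other genes of DNA replication were examined with 4 lists of 58 genes in all, of which 57 had a tested probe. By the brightest probe of a gene, 0 of the 57 had an unadjusted p under 0.05 in limma, against 7.91% of all tested genes (3.63% higher and 4.28% lower with DFX), and 0 passed the adjusted threshold. The Kruskal-Wallis H test gave 5 of the 57, namely the genes whose groups did not overlap, as was the case in 15.4% of all tested genes. Counting any probe, 2 of the 57 genes passed unadjusted, against 10.6% of all tested genes. These were a dimmer probe of MCM9, a relative of the ring subunits that acts in recombination repair (log2 fold change -0.42, limma, adjusted p = 0.516), and a dimmer probe of PRIM2, the large primase subunit (-0.41, limma, adjusted p = 0.585). The brightest probes were at -0.16 for MCM9 and 0.029 for PRIM2.

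The 11 genes of origin recognition and licensing control, with the origin recognition complex, geminin and MCM8 among them, had a median log2 fold change of -0.027, with 2 above 0 and 9 below 0. GMNN read 11.30, 11.49 and 11.83 with vehicle and 11.54, 11.48 and 11.55 with DFX, a log2 fold change of -0.02. ORC1, the ATPase subunit of the origin recognition complex that varies over the cell cycle, read 6.05, 6.98 and 7.09 with vehicle and 6.98, 7.07 and 6.47 with DFX. In both genes control replicate 1 was the lowest and control replicate 3 the highest of the 6 tumors.

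The 12 tested genes of origin firing had a median of -0.0059, with 6 above and 6 below 0. CDC45, which joins the ring together with GINS, read 11.35, 11.65 and 12.41 with vehicle and 11.92, 11.80 and 11.69 with DFX. Its group means were both 11.80, while the control tumors alone spanned more than the DFX tumors. TOPBP1, a scaffold of firing and of the replication checkpoint, was at 10.12, 10.16 and 10.05 with vehicle and at 10.21, 10.21 and 10.23 with DFX. Its groups did not overlap, at a log2 fold change of 0.11 (standard error 0.095, limma, adjusted p = 0.765).

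The 26 genes of the replication fork had a median of 0.046, with 16 above and 10 below 0, and 3 of them did not overlap between groups, all higher with DFX, against 6.93% of all tested genes that were separated in this direction. CLSPN, which encodes claspin, a mediator of the replication checkpoint, had the largest difference of the 57 genes. It was at 5.22, 5.83 and 6.15 with vehicle and at 6.28, 6.33 and 6.21 with DFX, a log2 fold change of 0.54 (standard error 0.24, limma, unadjusted p = 0.0667, adjusted p = 0.613). The others were POLE3, a histone-fold subunit of polymerase epsilon (0.20), and POLA1, the catalytic subunit of polymerase alpha (0.15). POLD2, the second subunit of polymerase delta, was at the other end with -0.39. The 8 genes that control the turnover of CDT1 and CDC6 had a median of -0.025. CUL4B, a cullin of the ubiquitin ligase that targets CDT1, was lower in all 3 DFX tumors, at 10.53, 10.54 and 10.56 against 10.74, 10.62 and 10.68 (-0.14, limma, adjusted p = 0.715).

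The order of the control tumors was also frequent in these genes. Control replicate 1 was the lowest and control replicate 3 the highest control tumor in 34 of the 57 genes, a share of 59.6%. The same held in 9 of the 10 G2/M genes (TOP2A, CCNB1, CDK1 and others). Over all tested genes the share was 21.5%. The exception in the G2/M list was MKI67, at 9.86, 10.26 and 10.21 in control replicates 1, 2 and 3. Control replicate 3 was the highest of all 6 tumors in 8 of the 10 G2/M genes and in 61.4% of the 57 (25.2% of all tested genes). In the G2/M list DFX replicate 1 was the highest DFX tumor in 3 of 10 genes, near the 29.6% of all tested genes. Control replicate 1 was the lowest of all 6 tumors in 2 of 10, near the 15.6% of all tested genes. In the 57 genes both of these shares were 47.4%. The G2/M genes had a median log2 fold change of -0.17, with 2 above and 8 below 0. By the brightest probe, 0 of the 10 had an unadjusted p under 0.05 in limma. A dimmer probe of MKI67, the gene of the Ki-67 antigen, was at 0.35 (limma, adjusted p = 0.580), where its brightest probe was at 0.21. Relative to each gene's mean, the G2/M median was -0.35 in DFX replicate 3 and 0.53 in control replicate 3, where the licensing medians were -0.087 and 0.28. In DFX replicate 1 they were at 0.067 and 0.18. Whether these medians differ from each other was not tested.

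**Figure D5:**
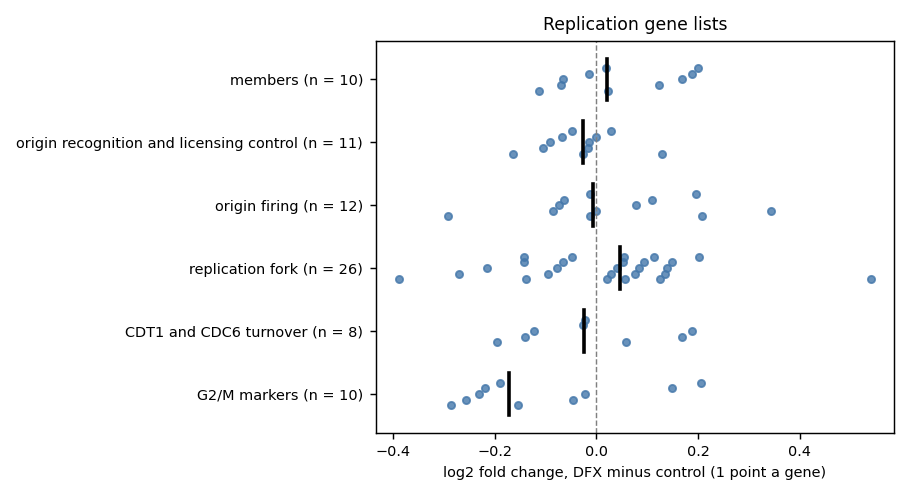
Log2 fold change of DFX over control tumors for each gene of the licensing group, of 4 other replication lists and of the G2/M list, 1 point a gene by its brightest tested probe, with a bar at the list median. The medians lie between -0.17 for G2/M and 0.046 for the replication fork, and CLSPN is the point furthest to the right.

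Among 17790 other genes well above background on all arrays, those whose profile was nearest to the mean of the 10 were ranked by the root mean square difference over the 6 tumors, after centring each profile. RFC4, a subunit of the clamp loader that places PCNA on DNA, was the nearest, with a difference of 0.029 on the log2 scale. It was at -0.29, -0.0089 and 0.27 in control replicates 1, 2 and 3 relative to its own mean and at 0.17, -0.063 and -0.078 in DFX replicates 1, 2 and 3. The next were BANP, KLHL25, FLJ33996 and CRELD2, at 0.033 to 0.046. The tumors share 1 slide, and the ranking is a description of 6 values.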

How the data were processed

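Gene expression was measured in 6 tumors on one-color Agilent arrays on 1 slide. The authors deposited scanner files with linear intensity values, a background p-value and flags for each spot, written by Agilent Feature Extraction 10.7.1.1 per the file headers (9.5.1.1 per the submitters' processing notes), not normalized between arrays. A deposited table of the authors' normalized intensity values, with the same median in every column, was within a median of 0.185% of the quantile-normalized linear signal and was used as an alternative. Here the background-subtracted, detrended signal of 58717 non-control spots was log2-transformed and quantile-normalized. The methods of the study name a quantile normalization of raw log2 signals, and raw mean signal was run as an alternative. In all, 1398 flagged spot values were left out (0 of them in the members), and spots were averaged per probe. The test took the 31801 of 50599 probes for which, on every array, the majority of spots passed a background p-value of 0.05. No member spot was saturated.

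The DFX and control tumors were set against each other by a two-sided moderated test (limma 3.58.1, functions lmFit and eBayes, R 4.3.3), with p-values adjusted by Benjamini-Hochberg for every probe in the test, and with 2.05 prior degrees of freedom, and the steps were tested on simulated data. The number of arrays limits the precision. The scanner files' own gene names were used, with unnamed transcripts counted under their identifiers. A gene with several probes took its value from the brightest one in the test except where both are given. The members and gene lists were chosen with earlier results of these data known. The text names all members, pathway genes under an unadjusted p of 0.05 and the 5 nearest profiles by rule. Other pathway and G2/M genes were named after their values were seen. TICRR was not among the gene names of the array's annotation. The alternatives covered normalization, background correction, filter, flags, the authors' values, the test, array weights, the replicate number and the slide column as blocks, and each tumor left out in turn.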

Additional observations from a re-analysis of the deposited data

How the results depend on the processing

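The count of member probes under an unadjusted p of 0.05 was 0 in every alternative except array quality weights, where it was 1 while the count over all probes rose from 2675 to 3618, and the count under an adjusted p of 0.05 was 0 in every alternative. The median log2 fold change of the member genes ran from -0.13 to 0.20 with 1 tumor left out, the ends being without control replicates 1 and 3, and from -0.057 with median scaling to 0.15 with array quality weights otherwise. Over all genes in the test the median became -0.095 under median scaling. Directions near 0 turned easily. With 75th percentile scaling CDC6 was at 0.071, with raw mean signal at 0.037 and with array quality weights at 0.18. With median scaling MCM6 was at -0.094 and the brighter MCM7 probe at -0.087. With the slide column as a block they were at -0.070 and -0.039, and with the authors' processed values this MCM7 probe was at -0.016. With array quality weights GINS2 was at 0.064 and the brighter MCM5 probe at 0.069. With 1 tumor left out, the log2 fold changes were -0.26 to 0.40 for CDC6, -0.25 to 0.13 for GINS2, -0.14 to 0.40 for MCM10, -0.27 to 0.0033 for MCM4, -0.25 to 0.16 for the brighter MCM5 probe, -0.11 to 0.15 for MCM6, -0.035 to 0.10 for the brighter and -0.18 to 0.87 for the dimmer MCM7 probe. CDT1, MCM2, MCM3 and the dimmer MCM5 probe kept their direction in every alternative run.

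Among the 57 replication genes, the count under an unadjusted p of 0.05 was 1 (CLSPN) with 75th percentile scaling and also 1 with the stricter filter, which kept probes well above background on each array, and 1 with normexp and with raw mean signal (RECQL4). It was 3 without variance moderation (CUL4B, POLA1 and TOPBP1), 2 when arrays were weighted by quality (CLSPN and RECQL4), and 5 by Kruskal-Wallis. With 1 tumor left out it was 0 to 3, the highest without control replicate 3 (CLSPN, DTL and RECQL4). The count over all probes was 2675, and it became 4926 by Kruskal-Wallis, 1420 with the slide column as a block and 1889 to 2717 with 1 tumor left out. The share of these calls that were lower with DFX was 58.8%, and 42.6% with 75th percentile scaling, 71.8% with median scaling and 51.1% with the slide column as a block. With the replicate number as a block it was 57.4% of 2419 probes, with 0 member probes and 0 of the 57 genes called. Between tumors that share a number, deviations from the group mean correlated at 0.027, 0.027 and 0.016, and the numbers were not taken to pair the tumors. The cause of these moves was not tested, beyond the weight that 1 tumor of 3 has in a mean.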
